A study of Mus musculus with 8 samples.

Results

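The genes described here are 35 genes of the cell division cycle, chosen as listed symbols from the 23420 genes of the count table. The rule uses no measured value, but it was drawn up with earlier results of these data known. By role they comprise 10 replication genes, 4 genes of the step from G1 into S phase (here G1/S genes) and 21 mitotic genes. RNA was measured by sequencing in 8 libraries of mouse dendritic cells, the antigen-presenting cells that carry antigen to lymph nodes. The 4 groups, each with 2 libraries described as biological replicates, were Gata1 knock-out (KO) cells given lipopolysaccharide (LPS, a bacterial cell wall component that activates these cells), KO cells at steady state, wild-type (WT) cells given LPS and WT cells at steady state. Gata1 encodes a transcription factor of blood cell development. The sources used here do not give how the knock-out was made and in which cells, the age of the mice, how the cells were obtained, or the LPS dose and time. The 4 groups differ in genotype and treatment only, as far as the labels say, and no batch is given in the labels.

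Cells that divide copy their DNA in S phase with a helicase made of Mcm2 to Mcm7, the sliding clamp Pcna, and enzymes that supply nucleotides. They then separate the copies in mitosis with cyclin B and Cdk1, the kinases Plk1, Aurka and Aurkb, and a spindle of microtubules. Replication genes are known targets of E2F transcription factors, and many mitotic genes are known targets of the DREAM complex and of Foxm1 with B-Myb through a promoter element called CHR, often with CCAAT boxes, the sites of NF-Y. Mature dendritic cells are known as cells that divide little, while their precursors divide.

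Promoter windows describe the DNA around the start of these genes by role, which the choice of genes did not use. RefSeq windows of 300 bases on GRCm38.p6 (250 before to 50 after the annotated start) were matched for 27 of the 35 genes, with 28 windows in all, since Mcm7 has 2. Mcm4, Ccnd1, Ccne2, Ccna2, Aurkb, Tpx2, Foxm1 and Kif20a were not among them. The CHR letters TTTGAA, searched on both strands, occurred in 11 of 16 mitotic windows (68.8%) and in 1 of 10 replication windows (10%), that of Mcm2, against 17.9% of all 32851 windows. CCAAT, also searched on both strands, occurred in 14 of 16 mitotic windows (87.5%) and 9 of 10 replication windows (90%), against 37.4% of all windows. The E2F letters were 4 spellings (TTTGGCG, the next TTTCCCG, the next TTTCGCG and the last TTTGCCG), and at least 1 of them occurred on either strand in 3 of 16 mitotic windows (18.8%) and 4 of 10 replication windows (40%), against 6.7% of all windows. The 2 G1/S windows held none of these letters. The shares of CCAAT were thus alike in mitotic and replication windows, and all shares rest on few windows. A match is a description of letters and not evidence of a bound site.

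The windows of 6 genes are shown because the results turn on them: a pair of mitotic genes with the largest log2 differences below 0 between LPS and steady state (Ccnb2, Cenpf), a pair of mitotic genes whose values lay the other way in KO cells (Mki67, Hmmr), and a pair of helicase genes called lower with LPS in KO cells (Mcm3, Mcm5). Each runs 5′ to 3′ on the strand of its gene, with capitals for matches to CHR, CCAAT or E2F letters on either strand. Coordinates are chr9:70421505-70421804 (minus strand) for Ccnb2, chr1:189688037-189688336 (minus) for Cenpf, chr7:135716330-135716629 (minus) for Mki67, chr11:40733388-40733687 (minus) for Hmmr, chr1:20820263-20820562 (minus) for Mcm3 and chr8:75109259-75109558 (plus) for Mcm5.
Ccnb2: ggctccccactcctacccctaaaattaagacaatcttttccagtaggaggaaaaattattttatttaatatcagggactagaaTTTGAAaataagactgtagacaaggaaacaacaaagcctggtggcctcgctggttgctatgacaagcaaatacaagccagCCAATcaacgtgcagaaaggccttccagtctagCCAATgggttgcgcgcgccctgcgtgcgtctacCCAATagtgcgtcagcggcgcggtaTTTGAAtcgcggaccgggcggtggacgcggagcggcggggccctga
Cenpf: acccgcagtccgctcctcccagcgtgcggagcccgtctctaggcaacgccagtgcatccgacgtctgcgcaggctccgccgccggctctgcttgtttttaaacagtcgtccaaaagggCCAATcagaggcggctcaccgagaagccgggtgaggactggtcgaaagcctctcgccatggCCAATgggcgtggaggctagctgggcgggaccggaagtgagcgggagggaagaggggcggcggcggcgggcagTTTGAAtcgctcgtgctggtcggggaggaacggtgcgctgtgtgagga
Mki67: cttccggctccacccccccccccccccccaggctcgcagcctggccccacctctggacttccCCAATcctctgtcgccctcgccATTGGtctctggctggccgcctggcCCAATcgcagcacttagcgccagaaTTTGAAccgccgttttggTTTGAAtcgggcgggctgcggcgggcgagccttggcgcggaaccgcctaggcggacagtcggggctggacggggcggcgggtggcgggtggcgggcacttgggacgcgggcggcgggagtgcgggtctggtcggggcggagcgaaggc
Hmmr: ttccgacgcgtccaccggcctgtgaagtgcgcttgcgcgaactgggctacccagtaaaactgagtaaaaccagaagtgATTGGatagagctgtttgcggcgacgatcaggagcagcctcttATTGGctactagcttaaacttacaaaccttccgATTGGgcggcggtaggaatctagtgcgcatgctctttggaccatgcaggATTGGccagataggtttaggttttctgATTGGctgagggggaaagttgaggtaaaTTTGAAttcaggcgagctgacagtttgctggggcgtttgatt
Mcm3: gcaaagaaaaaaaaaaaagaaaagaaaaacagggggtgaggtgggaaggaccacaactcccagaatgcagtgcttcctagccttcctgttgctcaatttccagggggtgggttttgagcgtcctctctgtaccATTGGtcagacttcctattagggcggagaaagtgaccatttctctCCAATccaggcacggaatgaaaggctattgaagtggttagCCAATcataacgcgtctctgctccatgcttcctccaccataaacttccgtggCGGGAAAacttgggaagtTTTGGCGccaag
Mcm5: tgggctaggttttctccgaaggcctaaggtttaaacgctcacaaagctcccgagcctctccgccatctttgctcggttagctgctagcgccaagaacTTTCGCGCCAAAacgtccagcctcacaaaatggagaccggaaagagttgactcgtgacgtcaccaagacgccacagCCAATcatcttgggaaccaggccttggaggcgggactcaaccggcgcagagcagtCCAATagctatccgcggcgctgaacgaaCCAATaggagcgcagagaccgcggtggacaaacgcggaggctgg
In these windows Ccnb2 and Cenpf hold CHR and CCAAT letters, and so do Mki67 and Hmmr. Ccnb2 has its CHR matches 167 bases before and 4 bases after the start, Cenpf 2 bases after it, Hmmr 8 bases after it, and Mki67 116 and 98 bases before it. The Mcm3 and Mcm5 windows hold CCAAT and E2F letters and no TTTGAA, and the E2F matches of Mcm5 overlap each other on opposite strands.

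**Figure D1:**
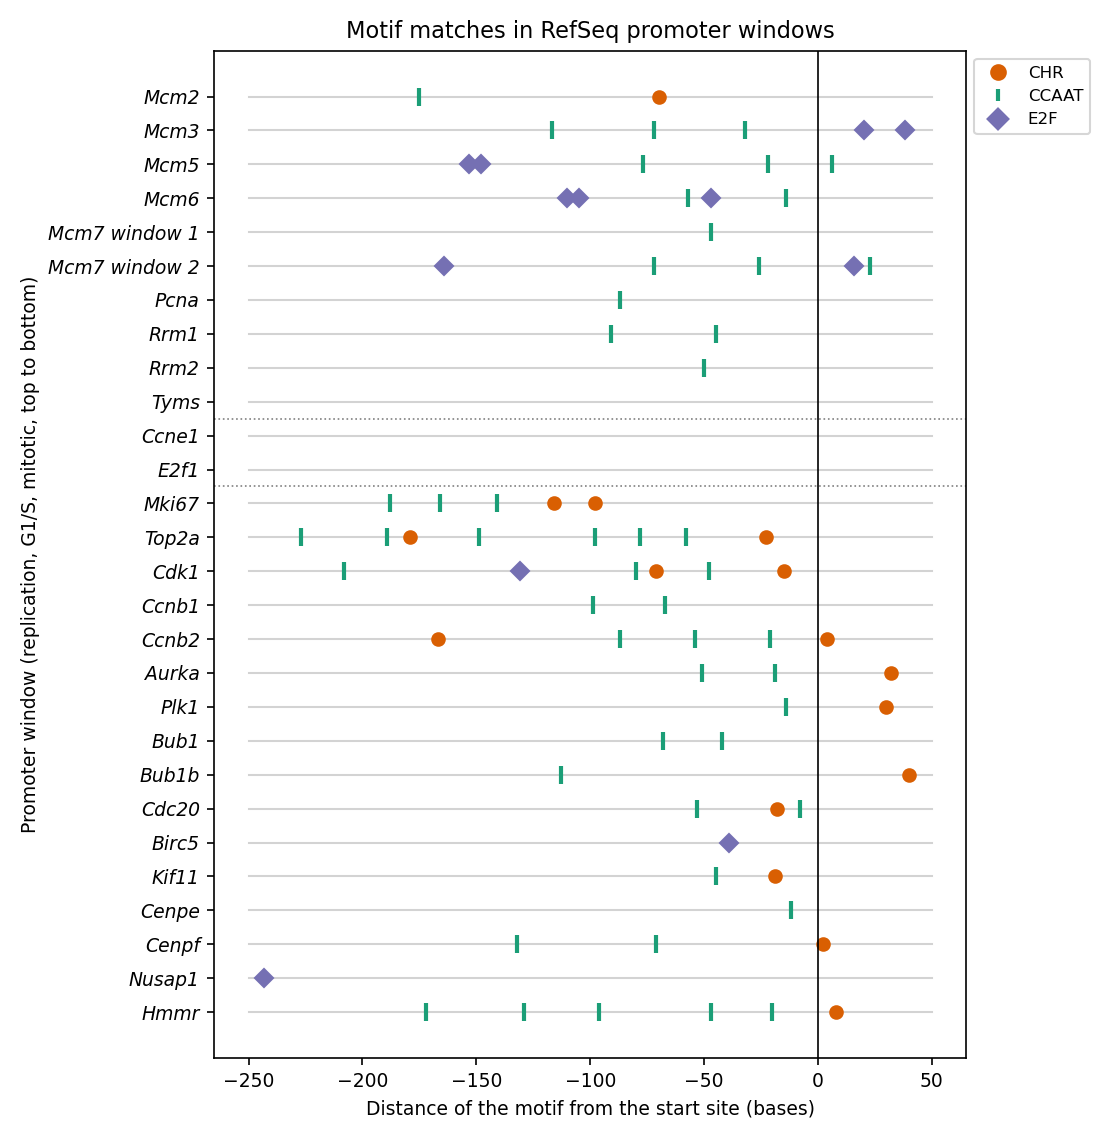
Positions of CHR (circles), CCAAT (bars) and E2F (diamonds) letters in 28 promoter windows, by distance in bases from the annotated start (line at 0), with replication, G1/S and mitotic genes from top to bottom. CHR letters appear in 11 of the 16 mitotic windows and in 1 of the 10 replication windows.

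Library totals were between 8005151 and 15495249 counts. Gata1 had 0 reads in each of the 4 KO libraries, 0 and 1 in WT libraries with LPS and 1 and 10 in WT libraries at steady state, so the gene is too low to check every label. CPM is the usual depth-scaled read count, here with library sizes scaled by TMM factors. Of the dendritic cell genes, Cd74, the invariant chain of MHC class II, had 1835 to 14930 CPM over the 8 libraries. Cd209a, a lectin of these cells, had 0 CPM in both KO libraries with LPS and 0 and 0.0619 CPM in WT libraries with LPS. Flt3, a growth factor receptor, had 0.452 and 0.306 CPM in KO libraries with LPS, and 0.926 and 18.7 CPM in WT libraries with LPS. At steady state Flt3 had 33.4 and 35.15 CPM in KO libraries, and 19.9 and 55.9 CPM in WT libraries. Cd86, of the same list, lay the other way in WT libraries, at 598 and 520 CPM with LPS, against 111 and 110 CPM at steady state. Within groups, the SD of log2 CPM had a median over genes of 0.355 for KO with LPS, 0.111 for KO at steady state, 0.463 for WT with LPS and 0.196 for WT at steady state. Where the cells of each library came from is not given beyond the word replicate, and p-values therefore measure the spread between these libraries. In RNA from whole cell samples, fewer cells of a type and less RNA per cell cannot be told apart.

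With LPS, cell cycle genes were mostly lower than at steady state in KO cells, and fewer of them passed the test in WT cells. Of the 34 genes with enough reads to test, 11 fell with LPS in KO cells and none rose (32.4%, against 11.8% of all 12442 genes called in either direction, 5.3% called higher and 6.46% called lower). The 11 were the helicase genes Mcm3, Mcm5 and Mcm7, cyclin D1 (Ccnd1), cyclin B2 (Ccnb2), the mitotic kinase Aurka, the activator of the anaphase-promoting complex Cdc20, survivin (Birc5), the kinetochore genes Cenpe and Cenpf, and Foxm1. In WT cells 3 of the 34 fell, namely Ccnd1, Ccnb2 and Cenpf, and none rose (8.82%, against 6.49% of all genes called in either direction, 3% called higher and 3.49% called lower). The median log2 difference of the 34 genes was -1.94 in KO cells and -0.78 in WT cells, beside -0.02 and 0.00 for all genes tested. A gene was called when its Benjamini-Hochberg adjusted p over all genes was under 0.05 in the quasi-likelihood test of edgeR. Genes with few reads with LPS, here and in the wider lists below, could pass the read filter through the steady-state libraries alone. For such genes a value below 0 was favoured in advance.

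The count of 11 in KO cells rests on every one of the KO libraries. It became 0 without KO steady-state library 2 or KO LPS library 2, 2 without KO steady-state library 1 and 3 without KO LPS library 1. Without either WT steady-state library it became 3, and without either WT LPS library 22 fell and E2f1 rose, with the spread then estimated from fewer libraries. In WT cells the count of 3 became 0 without KO LPS library 1 or 2, WT LPS library 1 or either WT steady-state library, 1 (Ccnd1) without KO steady-state library 2, and 6 lower with 1 higher (Ccne1) without WT LPS library 2. DESeq2 called 21 of the genes lower and E2f1 higher in KO cells, and 12 lower in WT cells.

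**Figure D2:**
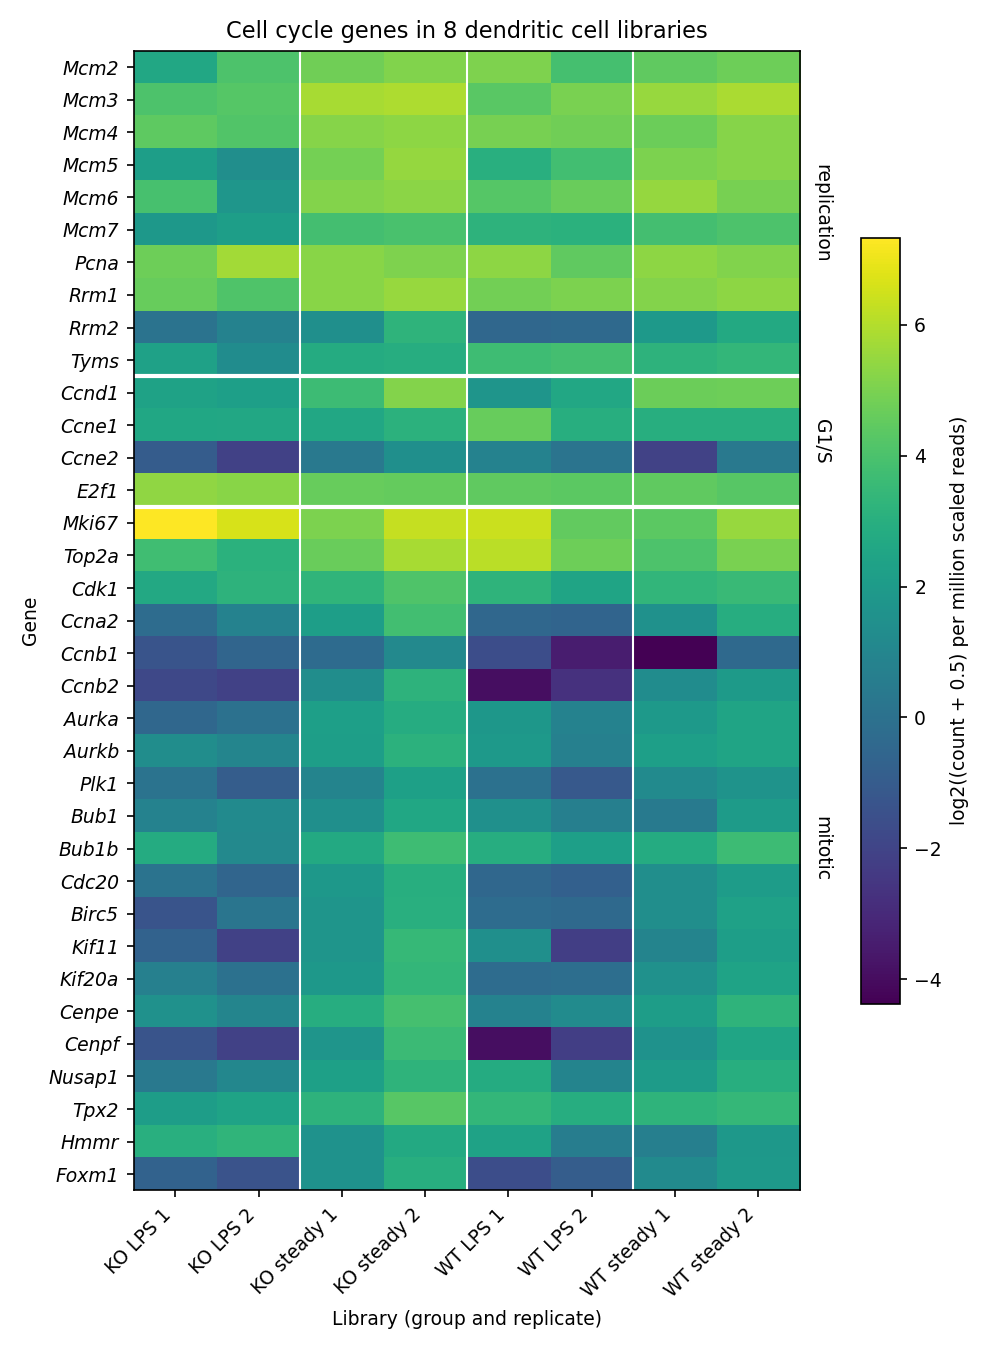
Level of each of the 35 genes (down the page, by role) in each of the 8 libraries (across), as log2 CPM with 0.5 added to each count. In both genotypes the columns with LPS are darker than those at steady state for most mitotic genes, while Mki67 is brightest in the KO LPS libraries.

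Levels of cell type markers moved with LPS too. Over the 12 dendritic cell markers, summed CPM was 4766 and 9883 in KO libraries with LPS, against 21720 and 20860 at steady state, and 7 of 12 were called lower. In WT libraries that sum was 16660 and 11120 with LPS, against 29430 and 17190 at steady state, with 1 called higher and 2 lower. The macrophage sum was 23160 and 17980 in KO libraries with LPS, against 29220 and 25570 at steady state, and 8320 and 5039 in WT libraries with LPS, against 26900 and 21240 at steady state. Of 13 macrophage markers tested, 1 was called higher and 6 lower with LPS in KO cells, and 1 higher and 7 lower in WT cells. The stem and progenitor sum was 281 and 339 in KO libraries with LPS, against 219.8 and 307 at steady state, with 1 of 11 called higher and 4 lower. In WT libraries it was 417 and 396 with LPS, against 154.5 and 234 at steady state, with 2 called higher. The gene called higher in KO cells was Ly6a, which encodes Sca-1, with 248 and 293 CPM in KO libraries with LPS, against 1.86 and 9.65 CPM at steady state. Without Ly6a the sum lay the other way in KO cells, at 32.8 and 45.8 in KO libraries with LPS, against 217.9 and 297.7 at steady state, and in WT libraries it was 260 and 221 with LPS, against 147.9 and 225.7 at steady state, where the ranges overlapped. Of the erythroid markers, 6 of 12 measured were at 0 in every library, among them the globin genes Hba-a1, Hba-a2, Hbb-b1 and Hbb-b2. The erythroid sum was 64.0 and 128 in KO libraries with LPS, against 239 and 290.5 at steady state. Most of it was Tfrc, at 47.6 and 110 CPM in KO libraries with LPS, against 209 and 255 CPM at steady state. In WT libraries the erythroid sum was 254.6 and 100.5 with LPS, against 240.3 and 120.3 at steady state, where the ranges overlapped. The eosinophil sum was 1.69 and 1.53 in KO libraries with LPS, against 46.0 and 11.4 at steady state, with 2 of 5 called lower. The mast cell and basophil sum was 17.3 and 37.7 in KO libraries with LPS, against 93.8 and 104.9 at steady state, with none of 5 called. In WT libraries it was 272 and 128 with LPS, against 69.2 and 173 at steady state, with 1 of 5 called higher. That WT sum with LPS came mostly from Gata2 (135 and 67.6 CPM), Hdc (130 and 17.8 CPM) and Kit (6.48 and 41.95 CPM). Prss34, of the same list, lay the other way, at 0 and 0.0619 CPM with LPS, against 1.35 and 55.9 CPM at steady state. Neutrophil markers had 1 of 10 called higher in KO cells and 2 of 10 lower in WT cells, with sums of 184 to 882 over the 8 libraries. Mmp8 alone had 145 to 580 CPM over these libraries. Summed B cell markers reached at most 34.8 CPM in any library, and summed T and NK cell markers at most 8.84 CPM. The part of these markers in the cell cycle values was not tested.

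Among the 10 replication genes, 3 of the 6 subunits of the MCM helicase fell with LPS in KO cells. The log2 difference was below 0 for 9 of 10 in each genotype, with a median of -1.56 in KO cells and -0.54 in WT cells. Mcm5 (chr8:75109468-75128439), a subunit of the helicase ring, had 4.52 and 2.60 CPM in KO libraries with LPS, against 29.2 and 44.2 CPM at steady state. The ranges did not overlap, and Mcm5 fell by a log2 difference of -3.34 ± 0.44 (SE; edgeR adjusted p = 0.0067). Over both libraries of a group this was 57 reads with LPS and 875 at steady state, a scaled ratio of 0.102 (95% exact counting interval 0.0769 to 0.134, counting error only). In WT libraries Mcm5 had 7.93 and 13.9 CPM with LPS, against 32.5 and 37.0 CPM at steady state. Those ranges did not overlap either, and the log2 difference was -1.66 ± 0.40 (adjusted p = 0.0536). Mcm5 is the gene of the 11 that kept its call most often, in 14 of 16 alternative fits, with log2 differences in KO cells between -3.81 and -3.0. The call was lost without KO steady-state library 2 or KO LPS library 2.

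Mcm3 (chr1:20802966-20820312), another helicase subunit, had 16.8 and 19.1 CPM in KO libraries with LPS, against 55.7 and 59.9 CPM at steady state. Its log2 difference was -1.68 ± 0.29 (adjusted p = 0.0156). Mcm7 (chr5:138164583-138172111) had 3.61 and 4.44 CPM in KO libraries with LPS, against 14.1 and 15.6 CPM at steady state (-1.88 ± 0.31, adjusted p = 0.014). For both genes every KO library with LPS was below every KO library at steady state. In WT libraries Mcm3 had 20.0 and 31.6 CPM with LPS, against 46.4 and 57.8 CPM at steady state (-1.01 ± 0.28, adjusted p = 0.0775). Of the exon bases of Mcm7, 8.7% also lie in exons of Ap4m1 or Cops6, and the library kit does not mark strand.

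The other subunits of the ring did not pass the test in KO cells. Mcm4 had 21.2 and 17.6 CPM with LPS, against 37.1 and 40.1 CPM at steady state (-0.99 ± 0.26, adjusted p = 0.0518). Mcm6 had 15.1 and 3.37 CPM with LPS, against 35.3 and 39.5 CPM at steady state (-2.0 ± 0.60, adjusted p = 0.0715). Mcm2 had 6.21 and 16.8 CPM with LPS, against 27.4 and 34.5 CPM at steady state (-1.43 ± 0.54, adjusted p = 0.119). In all 3 the KO libraries with LPS lay below those at steady state, and in Mcm6 and Mcm2 the KO LPS libraries stood far from each other.

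Pcna, the clamp that holds DNA polymerase on its template, had 26.8 and 51.9 CPM in KO libraries with LPS, against 38.5 and 33.4 CPM at steady state. These ranges overlapped (0.13 ± 0.39, adjusted p = 0.844). In WT libraries Pcna had 40.1 and 22.0 CPM with LPS, against 40.4 and 35.02 CPM at steady state (-0.28, adjusted p = 0.667). In neither genotype was the difference of Pcna larger than its SE.

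The nucleotide enzymes did not share 1 pattern. Rrm2, the small subunit of ribonucleotide reductase whose protein is known to be made in S phase, had 1.02 and 1.68 CPM in KO libraries with LPS, against 2.71 and 9.47 CPM at steady state (-2.18 ± 0.71, adjusted p = 0.0872). In WT libraries Rrm2 had 0.661 and 0.742 CPM with LPS, against 3.77 and 6.69 CPM at steady state (-2.87 ± 0.74, adjusted p = 0.0627). The ranges were apart in both genotypes, with neither difference past the threshold. Rrm1, the large subunit, had 24.7 and 17.5 CPM in KO libraries with LPS, against 37.9 and 46.1 CPM at steady state (-0.99 ± 0.26, adjusted p = 0.0518). Tyms, which makes thymidylate, had 4.97 and 2.45 CPM in KO libraries with LPS, against 7.06 and 7.44 CPM at steady state (-0.95 ± 0.40, adjusted p = 0.146). In WT libraries Tyms lay the other way, at 13.1 and 14.3 CPM with LPS, against 8.98 and 10.3 CPM at steady state (0.51 ± 0.38, adjusted p = 0.417). A pseudogene of Tyms, Tyms-ps, is counted apart in the count table.

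Of the G1/S genes, cyclin D1 fell with LPS in both genotypes. Ccnd1 (chr7:144929931-144939831), the cyclin that links growth signals to the cycle, had 5.20 and 4.59 CPM in KO libraries with LPS, against 12.5 and 36.0 CPM at steady state (-2.30 ± 0.55, adjusted p = 0.0403). In WT libraries Ccnd1 had 3.31 and 6.25 CPM with LPS, against 26.2 and 26.6 CPM at steady state (-2.44 ± 0.55, adjusted p = 0.0448). Every library with LPS was below every library at steady state in both genotypes, and the KO steady-state libraries stood far from each other. When 1 library was left out, the KO value lay between -2.87 and -1.33. Of the exon bases of Ccnd1, 23.4% also lie in exons of LTO1.

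E2f1, a transcription factor that drives entry into S phase, had 42.1 and 38.3 CPM in KO libraries with LPS, against 24.12 and 23.997 CPM at steady state. The KO LPS libraries were the highest of all 8, and the log2 difference was 0.74 ± 0.22 (adjusted p = 0.0704). In WT libraries E2f1 had 22.1 and 20.7 CPM with LPS, against 22.1 and 19.3 CPM at steady state (0.04 ± 0.22, adjusted p = 0.917). Ccne1, a cyclin that activates Cdk2 at the start of S phase, had 6.10 and 6.12 CPM in KO libraries with LPS, against 6.13 and 8.77 CPM at steady state (-0.28 ± 0.53, adjusted p = 0.734). In WT libraries Ccne1 had 24.1 and 7.73 CPM with LPS, against 7.82 and 7.73 CPM at steady state, so that 1 library of the group carried the difference (1.02 ± 0.53, adjusted p = 0.258). Ccne2, the second cyclin E, had 0.452 and 0.153 CPM in KO libraries with LPS, against 1.24 and 2.75 CPM at steady state (-2.61 ± 1.03, adjusted p = 0.13). Of the exon bases of Ccne2, 17.4% also lie in exons of Ints8.

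Most of the mitotic genes had lower values with LPS than at steady state. In KO cells the LPS difference was below 0 for 18 of the 20 mitotic genes tested, against 51.2% of all genes, and 7 of these fell (median -2.19). In WT cells it was below 0 for 17 of the 20, against 49.8% of all genes, and 2 of these fell (median -1.10). The WT median was -1.75 without WT steady-state library 1, -1.68 without WT LPS library 1, -0.558 without WT steady-state library 2 and -0.425 without WT LPS library 2. The libraries with LPS lay wholly below those at steady state for 17 of 20 in KO cells and 12 of 20 in WT cells, against 38.2% and 29.1% of all genes tested. Some of the 20 genes passed the read filter through the steady-state libraries only, since 11 mitotic genes passed when the 2 LPS groups were filtered alone. For such genes a value below 0 was favoured in advance, so these counts do not test a fall.

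Ccnb2 (chr9:70407689-70421554), a B-type cyclin that activates Cdk1 for entry into mitosis, had 0.226 and 0.153 CPM in KO libraries with LPS, against 2.56 and 9.21 CPM at steady state. Over the group these were 3 reads with LPS and 137 at steady state, a scaled ratio of 0.0344 (95% exact counting interval 0.00701 to 0.103). The edgeR log2 difference was -4.84 ± 0.98 (adjusted p = 0.0253). In WT libraries Ccnb2 had 0 and 0.124 CPM with LPS, against 2.41 and 3.94 CPM at steady state. There the ratio was 0.0257 (0.00306 to 0.0961), from 2 reads with LPS and 78 at steady state (-5.12 ± 1.04, adjusted p = 0.0331). Ccnb2 was thus almost absent from all 4 libraries with LPS and present in all 4 at steady state, and fitted log2 values at so few reads depend on the prior count.

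Cenpf (chr1:189640606-189688107), a kinetochore protein, had 0.339 and 0.153 CPM in KO libraries with LPS, against 3.33 and 12.1 CPM at steady state. The group had 4 reads with LPS and 180 at steady state, a ratio of 0.0349 (0.00942 to 0.091), and the log2 difference was -4.85 ± 1.01 (adjusted p = 0.0271). In WT libraries Cenpf had 0 and 0.186 CPM with LPS, against 2.99 and 5.58 CPM at steady state. The ratio there was 0.0284 (0.00576 to 0.0853), from 3 reads with LPS and 106 at steady state (-5.05 ± 1.05, adjusted p = 0.0362). As for Ccnb2, no library with LPS came near any library at steady state.

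Foxm1 (chr6:128362994-128375886), the transcription factor that activates genes of G2 and mitosis, had 0.565 and 0.306 CPM in KO libraries with LPS, against 2.95 and 7.79 CPM at steady state (-3.55 ± 0.75, adjusted p = 0.0285). In WT libraries Foxm1 had 0.264 and 0.495 CPM with LPS, against 2.32 and 3.87 CPM at steady state (-2.92, adjusted p = 0.0588). The ranges were apart in both genotypes, and the WT difference just missed the threshold. Birc5, a subunit of the chromosomal passenger complex, had 0.339 and 1.07 CPM in KO libraries with LPS, against 3.33 and 7.97 CPM at steady state (-3.03 ± 0.76, adjusted p = 0.0447). Cdc20 had 1.02 and 0.612 CPM in KO libraries with LPS, against 3.64 and 7.88 CPM at steady state (-2.78 ± 0.62, adjusted p = 0.0329). In WT libraries Cdc20 had 0.661 and 0.557 CPM with LPS, against 2.61 and 4.24 CPM at steady state (-2.49, adjusted p = 0.0588). For Birc5 and Cdc20 too, no range with LPS reached the range at steady state in either genotype.

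Aurka, the kinase of the spindle poles, had 0.678 and 0.919 CPM in KO libraries with LPS, against 4.65 and 7.26 CPM at steady state (-2.90 ± 0.58, adjusted p = 0.0246). In WT libraries Aurka had 3.44 and 1.73 CPM with LPS, against 3.77 and 5.43 CPM at steady state (-0.86, adjusted p = 0.321). Cenpe, a motor protein of the kinetochore, had 2.82 and 1.84 CPM in KO libraries with LPS, against 7.44 and 14.9 CPM at steady state (-2.24 ± 0.57, adjusted p = 0.047). Aurka and Cenpe had ranges apart in both genotypes. Of the 7 called mitotic genes, each kept its call in 9 or 10 of 16 alternative fits, and each lost it whenever a KO library or a WT steady-state library was left out.

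Other mitotic genes lay lower with LPS without passing the test. Ccna2, the cyclin of S phase and G2, had 0.791 and 1.68 CPM in KO libraries with LPS, against 4.58 and 13.7 CPM at steady state (-2.90 ± 0.77, adjusted p = 0.052). In WT libraries Ccna2 had 0.661 and 0.619 CPM with LPS, against 2.90 and 7.51 CPM at steady state (-3.02 ± 0.79, adjusted p = 0.0667). Of the exon bases of Ccna2, 12.5% also lie in exons of Exosc9. Kif11, the motor that pushes spindle poles apart, had 0.565 and 0.153 CPM in KO libraries with LPS, against 3.26 and 10.98 CPM at steady state (-4.19 ± 1.33, adjusted p = 0.0815). All these ranges were apart. Cdk1 itself, the kinase that cyclin B activates, had 6.33 and 9.19 CPM in KO libraries with LPS, against 9.77 and 17.1 CPM at steady state (-0.79 ± 0.43, adjusted p = 0.235). Its ranges in KO cells were close and did not overlap. Kif20a, a motor of cell separation, had a log2 difference of -2.45 in KO cells (adjusted p = 0.0575), and 29.3% of its exon bases also lie in exons of Cdc23.

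For the rest of the mitotic genes, the log2 difference in KO cells lay between -2.13 and -1.08. It was -2.13 for Plk1, the polo-like kinase, and -2.13 for Nusap1, a microtubule binder of the spindle. It was -1.62 for Aurkb, the kinase of the passenger complex, and -1.60 for Tpx2, the activator of Aurka. The spindle checkpoint genes Bub1 and Bub1b were at -1.12 and -1.08, and among these genes Bub1b was the one whose KO ranges overlapped. Ccnb1, the main B-type cyclin, was too low to test, with 7 reads over the KO libraries with LPS and 34 at steady state. Its ratio in KO cells was 0.324 (95% exact counting interval 0.121 to 0.742), and in WT cells 0.301 (0.0532 to 1.17), from 3 and 10 reads.

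Mki67 and Hmmr lay the other way from the rest of the mitotic genes in KO cells. Mki67 (chr7:135689784-135716450), which encodes the Ki-67 protein that coats mitotic chromosomes and is used as a marker of dividing cells, had 161 and 97.8 CPM in KO libraries with LPS, against 32.5 and 77.8 CPM at steady state. Both KO libraries with LPS were above both at steady state, with a log2 difference of 1.23 ± 0.70 (adjusted p = 0.254). In WT libraries Mki67 had 84.1 and 23.2 CPM with LPS, against 21.1 and 46.5 CPM at steady state. Those ranges overlapped (0.66 ± 0.70, adjusted p = 0.567), and without WT LPS library 1 the WT value was -0.537. Hmmr (chr11:40701388-40733464), which binds hyaluronan and spindle microtubules, had 8.13 and 9.65 CPM in KO libraries with LPS, against 2.95 and 6.55 CPM at steady state (0.90 ± 0.70, adjusted p = 0.393). In WT libraries Hmmr had 5.16 and 1.48 CPM with LPS, against 1.55 and 3.64 CPM at steady state (0.30, adjusted p = 0.815). None of these differences passed the test, although Mki67 alone made up most of the mitotic reads in KO libraries with LPS. There the summed mitotic CPM was 216 and 148, of which 54.9 and 49.8 came from genes other than Mki67. At steady state the sum in KO libraries was 141 and 323, of which 108 and 245 came from other genes.

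Top2a, the topoisomerase that untangles sister chromatids, differed in sign between genotypes. Top2a (chr11:98992947-99024199) had 13.4 and 8.57 CPM in KO libraries with LPS, against 25.4 and 55.5 CPM at steady state (-1.87 ± 0.60, adjusted p = 0.084). In WT libraries Top2a had 69.8 and 27.0 CPM with LPS, against 16.7 and 31.5 CPM at steady state (0.998 ± 0.58, adjusted p = 0.307). The KO ranges were apart and the WT ranges overlapped.

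**Figure D3:**
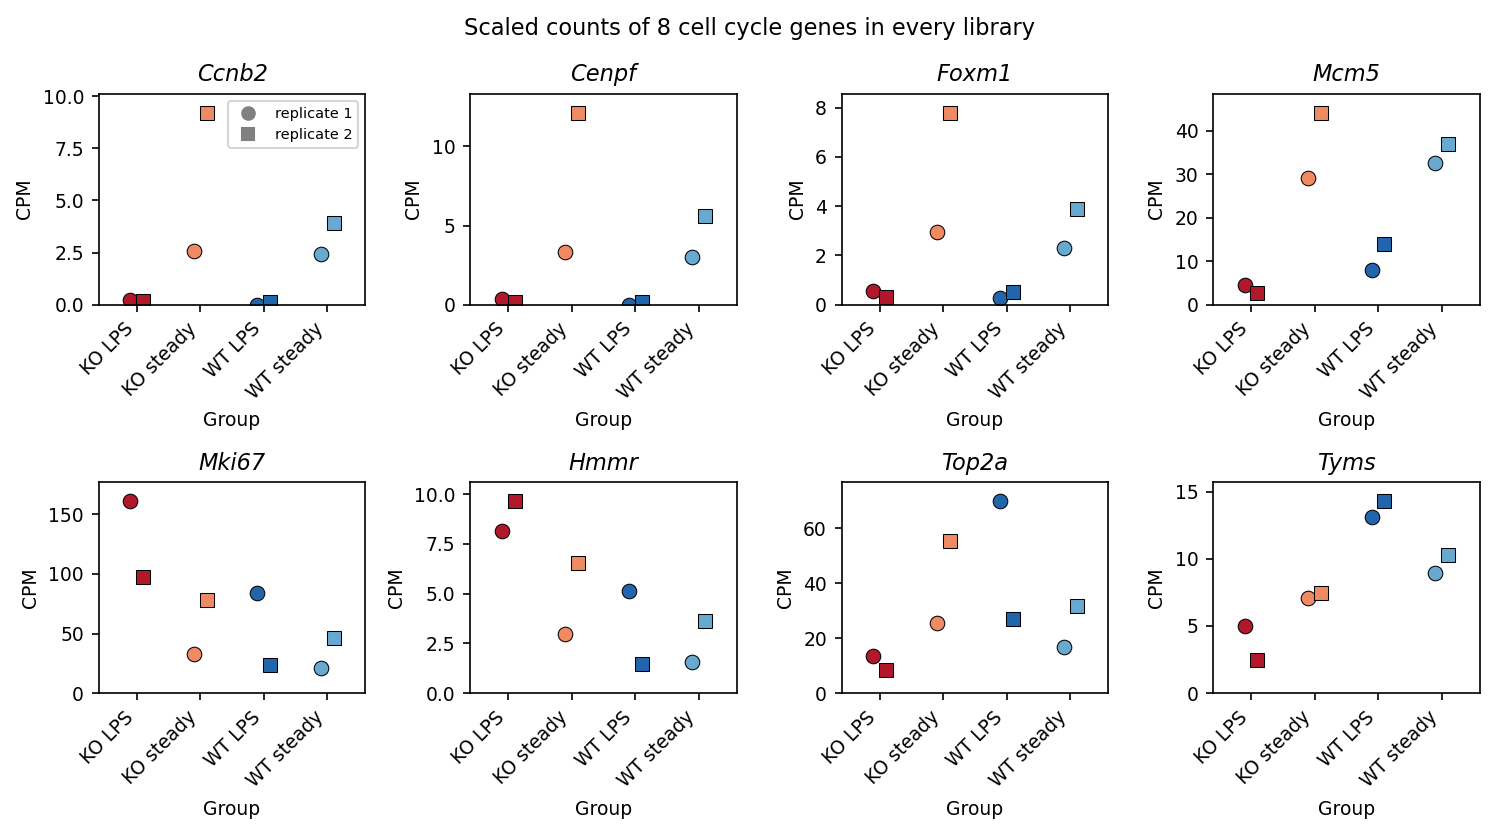
CPM of 8 cell cycle genes in every library, by group (circles, replicate 1; squares, replicate 2; each axis starts at 0). Ccnb2, Cenpf and Foxm1 lie near 0 in all 4 libraries with LPS, Mki67 and Hmmr are highest in the KO libraries with LPS, and Tyms and Top2a are lowest there.

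**Figure D4:**
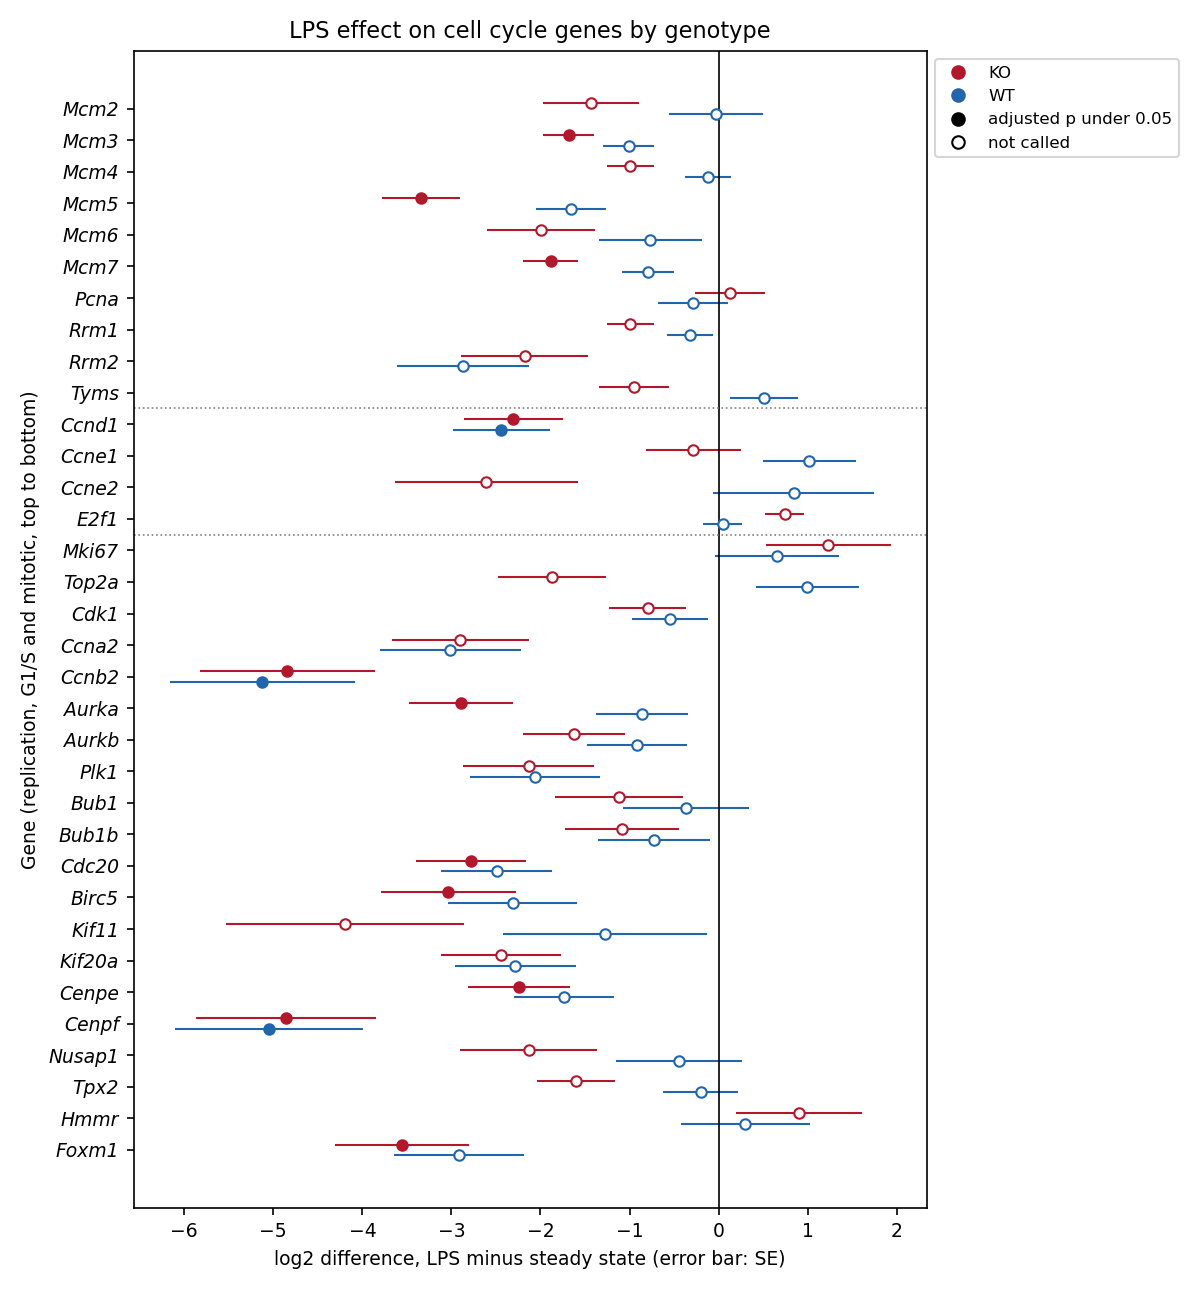
The log2 difference between LPS and steady state for the 34 genes tested, with its SE, in KO (red) and WT (blue) cells; filled points passed an adjusted p of 0.05. In KO cells 30 of 34 points lie below 0 and 11 are filled, and in WT cells 27 of 34 lie below 0 and 3 are filled.

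S phase genes were then set against mitotic genes in each library. The mean log2 CPM of the 10 replication genes was 3.09 and 2.99 in KO libraries with LPS, against 4.44 and 4.78 at steady state. For the 21 mitotic genes it was 0.90 and 0.72 in KO libraries with LPS, against 2.21 and 3.45 at steady state. In WT libraries the replication mean was 3.82 and 3.82 with LPS, against 4.46 and 4.66 at steady state, and the mitotic mean was 1.07 and 0.35 with LPS, against 1.68 and 2.66 at steady state. Both means were thus lower in every library with LPS than in every library of the same genotype at steady state. The replication mean minus the mitotic mean was 2.23 ± 0.04 in KO cells with LPS (SD, n = 2), against 1.78 ± 0.64 at steady state (n = 2). In WT cells it was 3.11 ± 0.51 with LPS, against 2.39 ± 0.56 at steady state (SD, n = 2 each). The ranges over libraries were 2.20 to 2.26 in KO cells with LPS, 1.33 to 2.24 in KO cells at steady state, 2.75 to 3.47 in WT cells with LPS and 2.00 to 2.79 in WT cells at steady state, so that each LPS range overlapped its steady-state range.

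**Figure D5:**
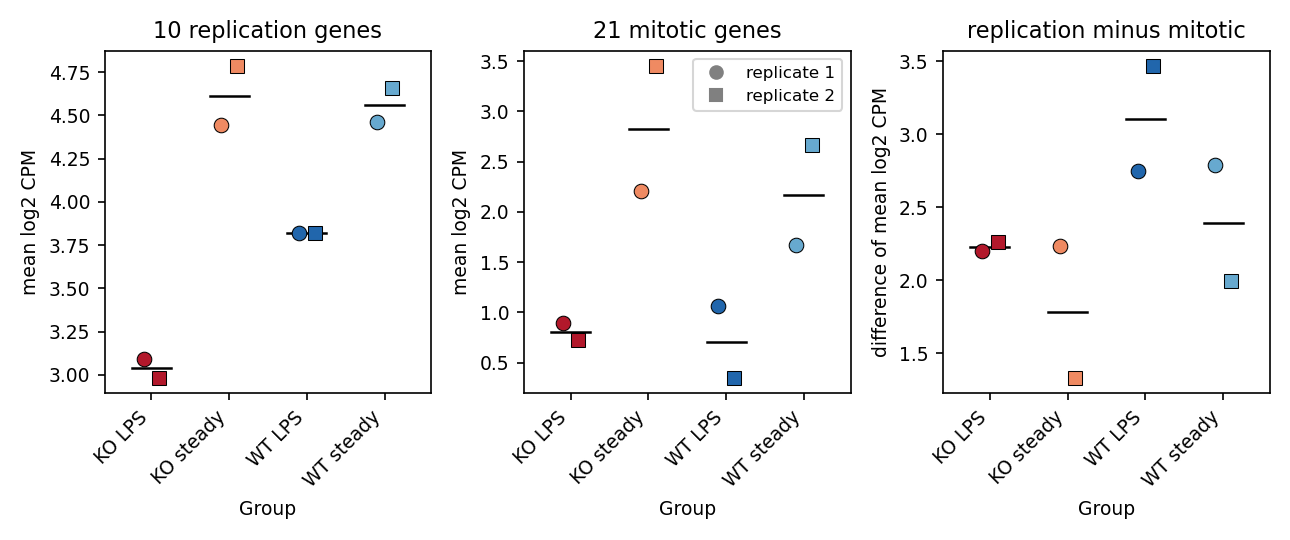
Mean log2 CPM of the replication genes, of the mitotic genes and their difference in each library, by group (circles, replicate 1; squares, replicate 2; lines, group means; the axes do not start at 0). Both means are lowest in libraries with LPS, and the KO and WT steady-state libraries spread more in the mitotic mean than in the replication mean.

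With LPS, no cell cycle gene passed the test between KO and WT cells, where 0.772% of all genes did. By edgeR 7 of the 34 had an unadjusted p under 0.05, a share near the 16.9% of all genes. DESeq2 called 5, of 1058 genes called in all. These 7 were Mcm5, Mcm7, Tyms, Ccne1, E2f1, Top2a and Aurka, and all but E2f1 had lower means in KO cells. Tyms had 4.97 and 2.45 CPM in KO libraries with LPS, against 13.1 and 14.3 CPM in WT libraries with LPS (-1.87 ± 0.40, adjusted p = 0.0866). E2f1 had 42.1 and 38.3 CPM in KO libraries with LPS, against 22.1 and 20.7 CPM in WT libraries with LPS (0.91 ± 0.22, adjusted p = 0.106). The ranges of both genes were apart. The differences for Mcm5, Mcm7 and Top2a were -1.61 ± 0.42 (adjusted p = 0.118), -1.13 ± 0.30 (adjusted p = 0.125) and -2.13 ± 0.61 (adjusted p = 0.14). Over the replication genes the median was -0.83, with 8 of 10 below 0, against 50.9% of all genes, and 7 of 10 with KO ranges wholly below WT ranges, where 18.1% of all genes had this. Over the 20 mitotic genes the median was 0.10, with 11 above 0 and 9 below. Several of the 20 had few reads in both groups, such as Ccnb2 with 3 reads in KO and 2 in WT libraries with LPS. With only the 2 LPS groups in the fit, 11 mitotic genes were tested, with a median of -0.317, 4 above 0 and 7 below. The replication median was then -1.1 over 9 genes, with 1 above 0 and 8 below. Without WT LPS library 1 Tyms and Mcm5 were called lower in KO cells, and without WT LPS library 2 Ccne1 was. Of the cell type markers, 4 were called between KO and WT cells with LPS. The dendritic cell genes Cd86 and Ccr7 and the stem cell gene Slamf1 were lower in KO cells. The macrophage gene Apoe was higher, with 947 and 372 CPM in KO libraries with LPS, against 44.4 and 48.9 CPM in WT libraries with LPS (3.82 ± 0.57, adjusted p = 0.0412). Lyz2, of the same list, had 16040 and 10000 CPM in KO libraries with LPS, against 2256 and 2057 CPM in WT libraries with LPS (2.59 ± 0.45, adjusted p = 0.0583). The part of these markers in the cell cycle values was not tested.

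The difference of the LPS effects, KO minus WT, was not called for any of 12442 genes by edgeR, of which 797 had an unadjusted p under 0.05 (6.41%), while DESeq2 called 104 genes, with no cell cycle gene among them. Of the cell cycle genes, 7 of 34 had an unadjusted p under 0.05 by edgeR, all with values below 0. Top2a had -2.87 ± 0.84 (adjusted p = 0.608), and Mcm5 had -1.69 ± 0.57 (adjusted p = 0.65). The others were Aurka at -2.04, Tyms at -1.46, Mcm7 at -1.09, Mcm4 at -0.87 and Ccne2 at -3.45. The median was -0.98 over the replication genes, with 8 of 10 below 0 (against 50.5% of all genes), and -0.43 over the mitotic genes, with 15 of 20 below 0. Without KO steady-state library 2 the mitotic median was 0.211 with 7 of 20 below 0, while the replication median was -0.908 with 8 of 10 below 0. The larger number of cell cycle calls in KO cells than in WT cells was therefore not matched by a called difference of the effects.

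At steady state no gene of any kind was called between KO and WT cells by edgeR, with 327 genes at an unadjusted p under 0.05 (2.63%), none of them a cell cycle gene. DESeq2 called 27 genes, with none of these 34 among them. The log2 differences ran from -0.41 for Tyms to 1.39 for Ccne2, which had 1.24 and 2.75 CPM in KO libraries, against 0.193 and 1.26 CPM in WT libraries. Ranges were apart for 4 of the 34, with Mcm2, Mcm4 and E2f1 higher and Tyms lower in KO libraries, where 22.1% of all genes were higher and 23.4% lower in this way. For 19 of 20 mitotic genes the log2 difference was above 0 and for 1 below, where 50.7% of all genes were below (median 0.70), but the ranges of all 20 overlapped. KO steady-state library 2 carried this, since without it 6 of 20 were above 0 (median -0.145).

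Libraries of the same group differed in their mitotic genes at steady state. In KO cells, replicate 2 had the higher value in 20 of 20 mitotic genes, with a median log2 difference of 1.13 from replicate 1, where 48.8% of all genes were higher. In WT cells replicate 2 was also higher in 20 of 20, with a median of 0.87, where 48.9% of all genes were higher. The replication genes were higher in replicate 2 for 9 of 10 in KO cells (median 0.15) and 8 of 10 in WT cells (median 0.22). Cenpf, for example, had 12.1 CPM in KO replicate 2 and 3.33 CPM in KO replicate 1. With LPS, replicate 2 was higher in 8 of 20 mitotic genes in KO cells (median -0.50) and 5 of 20 in WT cells (median -0.73). At steady state the mitotic genes tested thus all lay higher in replicate 2 of both genotypes. Markers of other cells also differed between the WT steady-state libraries. The neutrophil gene S100a9 had 87.9 CPM in WT replicate 2 and 9.37 CPM in WT replicate 1, and the basophil gene Prss34 had 55.9 and 1.35 CPM. The B cell sum was 34.8 CPM in WT replicate 2 and 5.31 CPM in WT replicate 1. In KO cells at steady state S100a9 and Prss34 were under 3 CPM in both libraries, and the B cell sum was 10.4 CPM in replicate 2 and 4.58 CPM in replicate 1. Their part in the mitotic values was not tested.

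Levels can be set beside each other between genes as CPM per kilobase of exon. On that scale Pcna was highest of the 35 genes in KO cells with LPS (16.4), WT cells with LPS (12.9) and WT cells at steady state (15.7), and Mcm3 was highest in KO cells at steady state (15.4). Mki67 stood at 12.9 in KO cells with LPS, the second of the 35, and at 5.48 in KO cells at steady state, where it was the seventh. In WT cells it stood at 5.33 with LPS and 3.36 at steady state. Cenpf was lowest with LPS, at 0.0159 in KO cells and 0.00601 in WT cells, and Ccnb1 was lowest at steady state, at 0.344 in KO cells and 0.0882 in WT cells.

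Wider lists of the same pathway, drawn up with earlier results of these data known, held further genes that fell with LPS in KO cells. Of other S phase genes, 10 of 48 tested fell and none rose (20.8%, against 6.46% of all genes called lower), led by Lig1, the ligase that joins Okazaki fragments. Lig1 had 8.36 and 7.35 CPM in KO libraries with LPS, against 31.4 and 32.8 CPM at steady state (-2.03 ± 0.29, adjusted p = 0.00923). Uhrf1, which keeps DNA methylation through replication, had 1.47 and 1.22 CPM with LPS, against 11.8 and 16.4 CPM at steady state (-3.37 ± 0.52, adjusted p = 0.0117). Pold1, the catalytic subunit of polymerase delta, had 16.5 and 11.3 CPM with LPS, against 57.2 and 43.6 CPM at steady state (-1.85 ± 0.31, adjusted p = 0.0146). All 3 had ranges far apart in KO cells. In WT cells Pold1 was the only one of the 48 called (2.08%, against 6.49% of all genes called in either direction and 3.49% called lower), at 18.8 and 27.0 CPM with LPS, against 81.0 and 72.3 CPM at steady state (-1.74 ± 0.30, adjusted p = 0.0207).

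Of other mitotic genes, 15 of 55 tested fell with LPS in KO cells and none rose (27.3%, against 6.46% of all genes called lower). Racgap1, a regulator of cell separation, had 3.39 and 2.45 CPM with LPS, against 10.3 and 19.2 CPM at steady state (-2.32 ± 0.44, adjusted p = 0.0211). Kif20b, a motor of cell separation, had 1.47 and 0.765 CPM with LPS, against 8.53 and 12.1 CPM at steady state (-3.17 ± 0.61, adjusted p = 0.0219). Lbr, the lamin B receptor, had 15.5 and 11.02 CPM with LPS, against 38.2 and 61.5 CPM at steady state (-1.91 ± 0.35, adjusted p = 0.02). The KO libraries with LPS were below those at steady state in each. In WT cells 1 of the 55 fell (1.82%, against 3.49% of all genes called lower), Ube2c, a ubiquitin-conjugating enzyme of the anaphase-promoting complex, at 0.132 and 0 CPM with LPS, against 1.93 and 2.75 CPM at steady state (-5.38 ± 1.13, adjusted p = 0.0362). The 10 and 15 calls in KO cells became 0 and 0 without KO steady-state library 1, KO steady-state library 2 or KO LPS library 2, and lay between 3 and 4 in each list without KO LPS library 1 or either WT steady-state library. Without KO LPS library 1, Pttg1, known as securin, was called higher in KO cells. Without either WT LPS library 15 of the S phase genes and 29 of the mitotic genes fell in KO cells, with 1 and 3 that rose. In WT cells, leaving out WT LPS library 2 gave 11 lower and 7 higher S phase genes and 7 lower and 8 higher mitotic genes, and leaving out either WT steady-state library gave none.

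A further list held 29 tested genes listed as brakes of the cycle or as regulators of such brakes. Of these, 5 fell and 1 rose with LPS in KO cells (20.7%, against 11.8% of all genes called in either direction), with a median of -0.21. Those that fell were Pkmyt1, the kinase that inhibits Cdk1 (-3.55 ± 0.52, adjusted p = 0.0105), E2f8, a repressor of E2F targets (-1.94 ± 0.33, adjusted p = 0.0151), the antiproliferative gene Btg2 (-1.10 ± 0.21, adjusted p = 0.0216), Mxd4, an antagonist of Myc (-2.05 ± 0.48, adjusted p = 0.0369), and Trp53, which encodes p53 (-0.88 ± 0.22, adjusted p = 0.0426). The gene that rose was Cdkn1c, a Cdk inhibitor, with 19.7 and 145 CPM in KO libraries with LPS, against 1.86 and 1.51 CPM at steady state (5.596 ± 1.37, adjusted p = 0.0427). Its KO LPS libraries stood far from each other, and both were above steady state. In WT libraries Cdkn1c had 62.3 and 5.88 CPM with LPS, against 5.51 and 3.64 CPM at steady state (2.89 ± 1.2, adjusted p = 0.179). Cdkn1a, which encodes the Cdk inhibitor p21, had 442 and 591 CPM in KO libraries with LPS, against 257 and 339 CPM at steady state (0.79 ± 0.37, adjusted p = 0.184). All 6 calls were lost without KO steady-state library 1 or 2 or KO LPS library 2.

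In WT cells 1 of the 29 brakes fell with LPS and 1 rose (6.9%), a share near the 6.49% of all genes. E2f8 had 2.12 and 1.73 CPM with LPS, against 10.4 and 10.8 CPM at steady state (-2.47 ± 0.35, adjusted p = 0.0104), and in KO libraries it had 4.97 and 5.05 CPM with LPS, against 16.1 and 22.5 CPM at steady state. Mxi1, an antagonist of Myc, had the WT difference 1.11 ± 0.25 (adjusted p = 0.0437). E2f8 was thus lower with LPS in both genotypes, and its WT call was lost without WT steady-state library 1 or 2, while that of Mxi1 held only without WT LPS library 2 among the fits that leave out a library.

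The last list held 24 other tested genes listed as drivers or regulators of the cycle. Of the 24, 2 fell with LPS in KO cells and none rose (8.33%, against 6.46% of all genes called lower and 11.8% called in either direction), a share near that of all genes. These were Mycl1, of the Myc family, and Tfdp2, a dimer partner of E2F. Mycl1 had 0.565 and 0.459 CPM in KO libraries with LPS, against 9.85 and 18.9 CPM at steady state (-4.77 ± 0.65, adjusted p = 0.0081). In WT libraries Mycl1 had 1.98 and 5.44 CPM with LPS, against 35.5 and 33.6 CPM at steady state (-3.17 ± 0.53, adjusted p = 0.0188). The ranges of Mycl1 were far apart in both. Tfdp2 had 7.34 and 3.22 CPM in KO libraries with LPS, against 33.3 and 29.8 CPM at steady state (-2.56 ± 0.43, adjusted p = 0.0146). In WT cells Mycl1 fell and 1 other driver rose (8.33%, against 6.49% of all genes). This was Cdk6, the partner of cyclin D, with 52.6 and 19.9 CPM with LPS, against 5.79 and 8.70 CPM at steady state (2.31 ± 0.49, adjusted p = 0.0369). In KO libraries Cdk6 had 10.1 and 9.34 CPM with LPS, against 8.45 and 9.47 CPM at steady state (0.11 ± 0.47, adjusted p = 0.886). The KO call of Mycl1 was lost without KO LPS library 2, that of Tfdp2 also without KO steady-state library 1 or 2, the WT call of Mycl1 without WT steady-state library 1 or 2, and that of Cdk6 in every fit that left out a library other than WT LPS library 2. None of the 4 wider lists had a gene called between KO and WT cells at either treatment or in the difference of the LPS effects.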

How the data were processed

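Per the labels' protocols, an RNeasy-plus mini kit gave the RNA and TruSeq RNA v2 reagents the libraries. The authors deposited whole-number read counts per gene, not normalized, in 1 column per library. Tools listed in the submitters' processing notes were edgeR 3.6.8, Subread 1.4.3, featureCounts and TopHat2 2.0.8, with the build mm10 and no roles. The sources used here do not give how reads that match several genes were counted. Groups came from the sample titles. The edgeR 4.0.16 quasi-likelihood F test (R 4.3.3) was fitted to all 8 libraries with 1 coefficient per group and TMM factors, on 12442 genes kept by filterByExpr (minimum count 10, minimum total 15), with 4 residual and 3.4 prior degrees of freedom. Tests were two-sided, with Benjamini-Hochberg adjustment over these genes within each of 5 comparisons. The SE is the log2 difference divided by the square root of F, and log2 CPM of library means used a prior count of 0.5. All 35 genes, the called genes of the wider lists with the smallest adjusted p (3 at most) and the brakes were named by rule. Pttg1 and Cdkn1a were picked after their values were seen. So were the cell type markers Cd209a, Flt3, Cd86, Ccr7, Slamf1, S100a9 and Prss34 and the globin genes. The members and lists were chosen with earlier results of these data known. The fits were repeated with upper-quartile or RLE factors, no filter or one that asked for a CPM of 1 or more in 2 libraries, robust dispersion, DESeq2 1.42.0, only the groups compared, a replicate block and leaving out each library. On simulated counts for LPS against steady state in KO cells (12236 genes), edgeR called 0% of 68 genes changed by 1 on the log2 scale, 39.1% of 64 changed by 2 and 86.8% of 68 changed by 3. The other 12036 genes were left unchanged, unlike in the data, so these shares do not measure the power in the data. Exon lengths and exon overlaps came from the GENCODE annotation, and gene coordinates and promoter windows from RefSeq on GRCm38.p6.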

Additional observations from a re-analysis of the deposited data

Results flagged for a closer look

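In Mcm4, a helicase subunit, KO and WT libraries stood in opposite orders in the 2 treatments. It had 21.2 and 17.6 CPM in KO libraries with LPS, against 30.0 and 28.0 CPM in WT libraries with LPS, and 37.1 and 40.1 CPM in KO libraries at steady state, against 25.9 and 37.0 CPM in WT libraries at steady state. The LPS effect in KO minus that in WT was -0.874 on the log2 scale (SE 0.368, adjusted p = 0.77 by edgeR), which does not pass the correction.

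In Tyms, thymidylate synthase, every KO library with LPS was below every KO library at steady state, and every WT library with LPS was above every WT library at steady state. The LPS effect in KO minus that in WT was -1.46 on the log2 scale (SE 0.549, adjusted p = 0.714 by edgeR), which does not pass the correction either.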

How the results depend on the processing

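The fits had 2 libraries a group, 4 residual degrees of freedom and mitotic genes of a few CPM. The power in these data for differences of 1 on the log2 scale was not tested. Trp53 (-0.88) and Btg2 (-1.10) were called with LPS in KO cells. RLE or upper-quartile factors moved the median of all genes by less than 0.1 in every comparison (to -0.0841 for LPS in WT with upper-quartile factors), and calls for cell cycle genes in KO cells with LPS numbered 11 to 12 under them.

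Lower calls for LPS in KO cells numbered 17 with no filter and 21 with DESeq2, which also called 1 higher, and 0 to 22 (higher, 0 to 1) when a library was left out. In WT cells they numbered 8 with no filter, 12 with DESeq2, 0 with only the groups compared, and 0 to 6 (higher, 0 to 1) when a library was left out. For KO against WT with LPS there were 2 lower with no filter, 4 lower and 1 higher with DESeq2, 1 lower with crossed numbers (chosen after seeing the data), and 0 to 2 when a library was left out. With only the groups compared, the replication median there was -1.1 and the mitotic median -0.317, over 11 mitotic genes tested, against 0.10 over 20.

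Under the replicate block 8 cell cycle genes were called lower with LPS in KO cells, 7 of the 11 and Ccna2, while Ccnd1, Aurka, Cdc20 and Cenpe were not called. In WT cells 2 of the 3 were called, without Ccnd1. The differences of replicate 2 from replicate 1 were correlated between groups over 12442 genes. The correlation was 0.166 for KO and WT at steady state and -0.599 for KO and WT with LPS. Between LPS and steady state it was 0.113 in KO and 0.26 in WT. Each value rests on 2 libraries in each group, and the numbers were not treated as pairs.

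When a library was left out, replication medians ranged from -0.0545 to 0.238 for KO against WT at steady state, -0.824 to -0.597 for KO against WT with LPS, -1.66 to -1.11 for LPS in KO, -0.718 to -0.419 for LPS in WT and -1.06 to -0.79 for the difference. Mitotic medians ranged from -0.145 to 1.25, -0.233 to 0.444, -2.66 to -1.51, -1.75 to -0.425 and -0.821 to 0.211 in the same order. These were over 20 or 21 genes, as Ccnb1 passed the filter in some of the fits. Replication minus mitotic means ranged from 2.2 to 2.26 for KO with LPS, 1.33 to 2.24 for KO at steady state, 2.75 to 3.47 for WT with LPS and 1.99 to 2.79 for WT at steady state.

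All genes called for KO against WT at steady state numbered 9 with no filter, 27 with DESeq2, 1 with only the groups compared and 0 to 1 without a library. With LPS they numbered 538, 1058, 0 and 1 to 826, and 8 with the block or 273 with it crossed. For LPS in KO they numbered 2223, 2846, 2316 and 143 to 3345, and 776 with the block, and in WT 1497, 1995, 229 and 70 to 3629, and 465 with the block. For the difference they numbered 3 with no filter and 104 with DESeq2.

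Direction reversed for Mki67 in KO against WT at steady state without KO steady-state library 2 (-0.0657, in a range up to 1.38), for Pcna with LPS in KO without KO LPS library 2 (-0.448, up to 0.527) and for Mki67 with LPS in WT without WT LPS library 1 (-0.537, up to 1.34). The causes were not tested.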
